A study of Homo sapiens with 6 samples.

Results

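The enzymes described here modify lysine and proline residues of collagen and join collagen molecules to one another. The 8 genes LOX, LOXL1, LOXL2, LOXL4, PLOD1, PLOD2, PLOD3 and P4HA2 were taken by symbol from a table of 11456 protein-coding genes, and 7 of them were found there. LOXL1 was not analysed here. They were selected on their function and on their FPKM values in the libraries compared here. The cells were HepG2-hCAR, which is 1 single-cell-derived clone of HepG2, a line established from a human hepatocellular carcinoma. A puromycin-selected lentivirus in this clone holds human CAR (NR1I3), the constitutive androstane receptor, under doxycycline control. RNA was sequenced from 3 libraries of vehicle-treated cells and 3 libraries of cells exposed to doxycycline at 1 µg/ml, each after 72 h. The vehicle cells carry the same inducible receptor, and no library had doxycycline without it, so what the drug does and what the receptor does cannot be told apart.

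Collagen chains are modified in the endoplasmic reticulum before they leave the cell. Prolyl 4-hydroxylases hydroxylate prolines, which stabilises the triple helix, and lysyl hydroxylases (the PLOD genes) hydroxylate lysines, some of which then carry sugars. Outside the cell, the copper-dependent lysyl oxidases (LOX and the LOX-like genes) oxidise lysines and hydroxylysines of collagen and elastin to aldehydes, which react to form the covalent crosslinks of fibres. In the liver this machinery is best known from fibrosis, where stellate cells rather than hepatocytes make most of the fibrillar collagen, and several of its genes are known to be induced by hypoxia.

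The lysyl oxidases share a catalytic region with a histidine-rich copper-binding stretch. Its codons are shown for the lysyl oxidase with the highest level in these cells, LOX, and for the one with the largest difference between the groups, LOXL4, with the histidine codons in capitals. They were read from the longest coding transcript of each gene in GENCODE 29.
LOX: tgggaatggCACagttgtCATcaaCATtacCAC
LOXL4: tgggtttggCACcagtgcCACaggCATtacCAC
Both hold 4 histidine codons because the search pattern required them, and the stretches differ at 10 of 33 bases. The pattern also fixed other residues, which limits that difference. None of the windows of 50 bases of the longest LOX and LOXL4 transcripts occurred in a transcript of another gene, and the same held for PLOD1, PLOD2, PLOD3 and P4HA2. LOXL2 shared 74 of its 3500 windows with ENTPD4, which overlaps it on the same strand, so reads there could be assigned to either gene.

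Values are in FPKM, in which fragments are divided by the length of the transcript and by how many were mapped in the library. They summed to 204318 to 209372 per library, and this scaling leaves the sequencing depth unknown. NR1I3, the induced gene, was at 3.24 ± 0.290 FPKM with vehicle and at 321 ± 8.51 FPKM with doxycycline. Here and below, errors are SDs over n = 3 libraries. All 11 hepatocyte markers examined were in the table, with a summed level of 1233 to 1361 FPKM in vehicle and 752 to 793 FPKM in doxycycline libraries. One defining marker, ALB (albumin), was low already with vehicle, at 1.87 ± 0.0837 FPKM. Of 13 fibroblast and stellate cell markers only PDGFRB and ACTA2 were listed, with a summed level of 19.1 to 20.2 FPKM in vehicle and 16.9 to 18.3 FPKM in doxycycline libraries, and none of 8 endothelial markers was listed. Most of that sum was ACTA2 (18.6 ± 0.668 and 16.4 ± 0.780 FPKM), while PDGFRB was higher with doxycycline (0.856 ± 0.0957 and 1.43 ± 0.0327 FPKM, limma adjusted p = 3.97e-03). PDGFRB reached the minimum mean of 1 FPKM for testing through the doxycycline libraries, so its p-value is a description and not a test. The part of this shift of markers in the results below was not tested. Whether replicate libraries stem from independent cultures is not stated in the labels, so the p-values may measure a spread that is only technical.

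Of the enzymes, LOXL4 and LOXL2 were higher with doxycycline, by ratios of 5.65 and 2.96. The other enzymes differed little from their vehicle level: PLOD1 by -7.77%, PLOD3 by 7.37% and P4HA2 by 6.71%, with LOX and PLOD2 closer still. Because FPKM is scaled to transcript length, the levels of the genes can be compared. In vehicle libraries the order was PLOD1, PLOD2, LOX, PLOD3, P4HA2, LOXL4 and LOXL2, and of these neighbours only PLOD2 and LOX overlapped in their values. In doxycycline libraries LOXL4 had moved above PLOD3 and P4HA2, from the sixth to the fourth place, and no neighbours overlapped. The members were chosen with earlier results of this comparison known, so their differences are given as a description without a test. In the fit over all genes, made with limma on log2(FPKM + 1), 3 of the 7 genes passed an adjusted p below 0.05, 2 higher and 1 lower, where 28.8% of the 10469 genes tested did (15.2% higher and 13.6% lower). The groups did not overlap in 5 of the 7 genes, where this held for 47.1% of the genes tested. In bulk samples fewer cells with a transcript and less transcript per cell cannot be told apart.

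**Figure D1:**
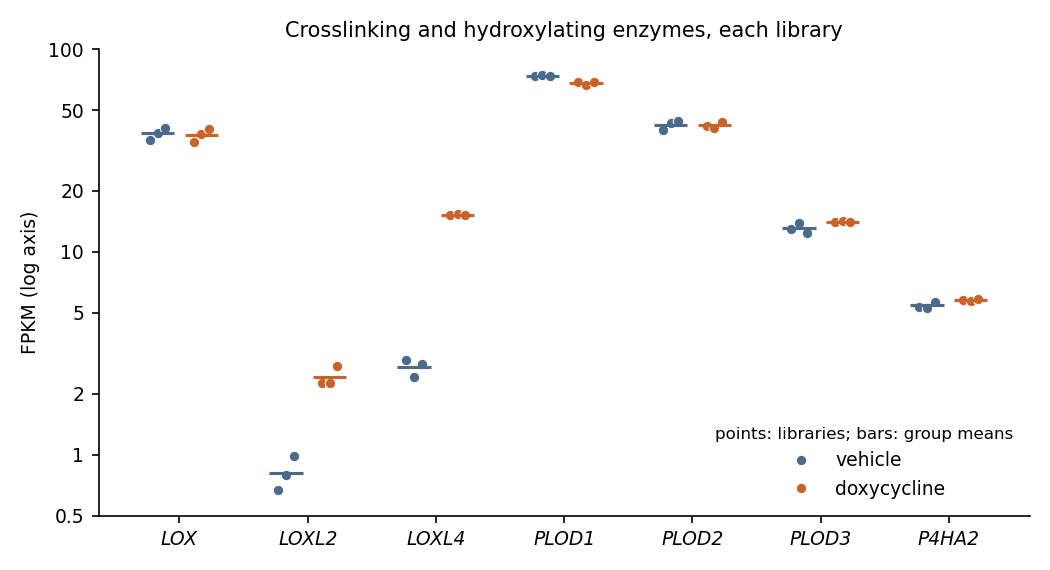
FPKM on a log axis for the 7 enzymes in each of the 3 vehicle and 3 doxycycline libraries (points), with the group means as bars. LOXL4 and LOXL2 are separated between the groups by several fold, while the points of LOX and PLOD2 overlap.

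LOXL4 encodes a lysyl oxidase with scavenger receptor cysteine-rich domains in front of its catalytic region. The gene lies on chromosome 10 at 100007447 to 100028007 of GRCh37 on the minus strand (ENSG00000138131), and no other listed gene overlaps it. Its level was 2.92, 2.41 and 2.79 FPKM in the vehicle libraries and 15.3, 15.3 and 15.2 FPKM in the doxycycline libraries. The doxycycline values all lay above the vehicle values and varied less among themselves, with a coefficient of variation of 0.369% against 9.82%. The ratio of the means was 5.65 and the difference on the log2(FPKM + 1) scale was 2.14 (SE 0.06), which placed LOXL4 at rank 7 of the 10469 genes tested, ordered from the largest increase. Among the listed genes its level moved from the 27.0 to the 77.3 percentile.

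LOXL2, which also has such domains, encodes an enzyme of basement membranes that oxidises collagen IV. It lies on chromosome 8 at 23154702 to 23282841 of GRCh37 (ENSG00000134013), on the minus strand. The vehicle libraries had 0.666, 0.798 and 0.983 FPKM and the doxycycline libraries 2.24, 2.25 and 2.75 FPKM, again without overlap. The ratio of the means was 2.96 and the difference 0.91 (SE 0.09) on the log2(FPKM + 1) scale, which understates a change at such low levels: with a pseudocount of 0.1 it was 1.47. LOXL2 reached the minimum mean of 1 FPKM through the doxycycline libraries, since its vehicle mean was 0.815 FPKM. The gene that overlaps LOXL2 on the same strand over 39546 bases, ENTPD4, a nucleotide phosphatase of the Golgi and lysosomes, had 5.80 ± 0.256 FPKM with vehicle and 6.73 ± 0.174 FPKM with doxycycline (limma adjusted p = 0.0306). The ENTPD4 call was lost in 6 of 15 alternatives (limma adjusted p 0.0259 to 0.0894 over all of them), namely with the replicate block and without each library but vehicle replicate 3. How fragments were divided between LOXL2 and ENTPD4 is not given in the sources used here.

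LOX, the founding member of the family, is secreted as a proenzyme whose propeptide is removed outside the cell. It lies on chromosome 5 at 121398890 to 121414055 of GRCh37 (ENSG00000113083), on the minus strand. LOX was at 35.7, 38.8 and 40.8 FPKM in the vehicle and at 34.9, 38.02 and 40.3 FPKM in the doxycycline libraries, and the groups overlapped almost fully. Its difference was -0.03 (SE 0.07), with a 95% interval from -0.19 to 0.14, so that a decrease to 0.874 times or an increase to 1.10 times the vehicle level on the FPKM + 1 scale lies within the interval. LOX stood above 92.6% of the listed genes with vehicle and above 92.4% with doxycycline.

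The 3 lysyl oxidases therefore had a different make-up in the groups. LOX made up 90.9%, 92.4% and 91.5% of their summed FPKM in the vehicle libraries and 66.5%, 68.4% and 69.2% in the doxycycline libraries. LOXL4 made up 7.43%, 5.74% and 6.26% with vehicle and 29.2%, 27.6% and 26.1% with doxycycline. The sum itself was 42.0 ± 2.61 FPKM with vehicle and 55.5 ± 2.93 FPKM with doxycycline, and the part of LOXL2 went from 1.93% ± 0.258 to 4.34% ± 0.338. LOX stayed the most abundant of the 3 in every library, at 14.3 ± 1.96 times LOXL4 with vehicle and 2.47 ± 0.184 times LOXL4 with doxycycline.

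**Figure D2:**
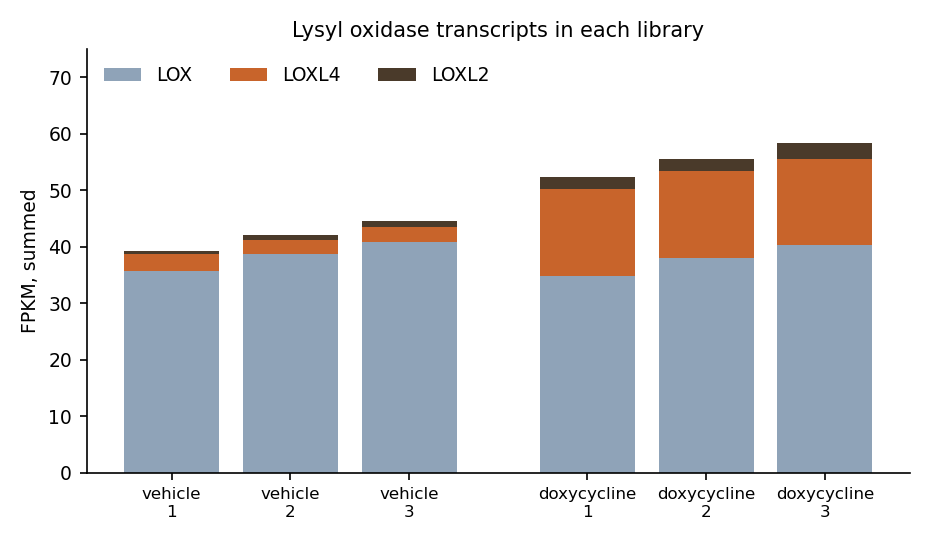
Summed FPKM of LOX, LOXL4 and LOXL2 in each library, on a linear axis from 0. The LOX segment stays between 34.9 and 40.8 FPKM in all 6 libraries, and the LOXL4 segment is about 15 FPKM in each doxycycline library against less than 3 FPKM in each vehicle library.

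LOXL3, the remaining lysyl oxidase gene in the table, was near the lower limit, at 0.537 ± 0.0862 FPKM with vehicle and 0.569 ± 0.128 FPKM with doxycycline. Its mean was under the minimum of 1 FPKM and it was not tested.

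Of the lysyl hydroxylases, PLOD1 and PLOD2 had the highest levels of the 7 enzymes, while PLOD3 lay below LOX. PLOD1, which hydroxylates lysines of the collagen helix, lies on chromosome 1 at 11994262 to 12035595 of GRCh37 (ENSG00000083444), on the plus strand. It had 73.9, 74.5 and 73.6 FPKM with vehicle and 69.2, 66.5 and 69.1 FPKM with doxycycline. The doxycycline values all lay below the vehicle values, but the distance was small: the ratio of the means was 0.922 and the difference -0.12 (SE 0.03). PLOD1 passed the limit of the fit over all genes in 9 of 15 alternatives. It no longer passed without vehicle replicate 1, 2 or 3 (differences of -0.12, -0.11 and -0.12), without doxycycline replicate 2 (-0.10), without the variance trend or with the replicate block, with the same sign throughout.

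PLOD2 hydroxylates lysines of the collagen telopeptides, the short ends from which the stable hydroxylysine crosslinks form. The gene lies on chromosome 3 at 145787227 to 145881440 of GRCh37 (ENSG00000152952), on the minus strand. Its values were 39.8, 43.4 and 44.1 FPKM with vehicle and 41.9, 40.8 and 43.99 FPKM with doxycycline, and the doxycycline values lay within the range of the vehicle values. The ratio of the means was 0.996, and the difference of -0.01 (SE 0.05) had a 95% interval from -0.13 to 0.12.

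PLOD3, which also adds glucose to hydroxylysine that carries galactose, lies on chromosome 7 at 100849258 to 100861701 of GRCh37 (ENSG00000106397), on the minus strand. It had 12.9, 13.96 and 12.4 FPKM with vehicle and 13.98, 14.2 and 13.99 FPKM with doxycycline, so that the lowest doxycycline value and the highest vehicle value differed by very little. The difference was 0.10 (SE 0.05), with an interval from -0.02 to 0.22, and PLOD3 did not pass in the fit or in any alternative. ZNHIT1 overlaps PLOD3 on the opposite strand over 753 bases. The summed level of the lysyl hydroxylases was 129.5 ± 2.69 FPKM with vehicle and 124.5 ± 2.89 FPKM with doxycycline, and PLOD1 made up 57.2% ± 1.06 and 54.8% ± 0.475 of it.

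P4HA2 encodes a catalytic alpha subunit of collagen prolyl 4-hydroxylase. It lies on chromosome 5 at 131527531 to 131631008 of GRCh37 (ENSG00000072682), on the minus strand. Its values were 5.37, 5.30 and 5.68 FPKM with vehicle and 5.83, 5.74 and 5.88 FPKM with doxycycline. The groups did not overlap, by a narrow distance, and the difference of 0.08 (SE 0.04) had an interval from -0.03 to 0.19. P4HA1, the alpha subunit that is more abundant in most cells, fell: it had 61.8, 69.4 and 70.7 FPKM with vehicle and 53.3, 51.1 and 55.6 FPKM with doxycycline (difference -0.33, SE 0.06, limma adjusted p = 9.66e-03). P4HA1 exceeded P4HA2 by 12.4 ± 0.790 times with vehicle and by 9.17 ± 0.284 times with doxycycline. P4HB, protein disulfide isomerase, which is the beta subunit of the enzyme, had 117 ± 4.99 and 109.6 ± 3.05 FPKM (limma adjusted p = 0.138). P4HA3 was not analysed here.

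**Figure D3:**
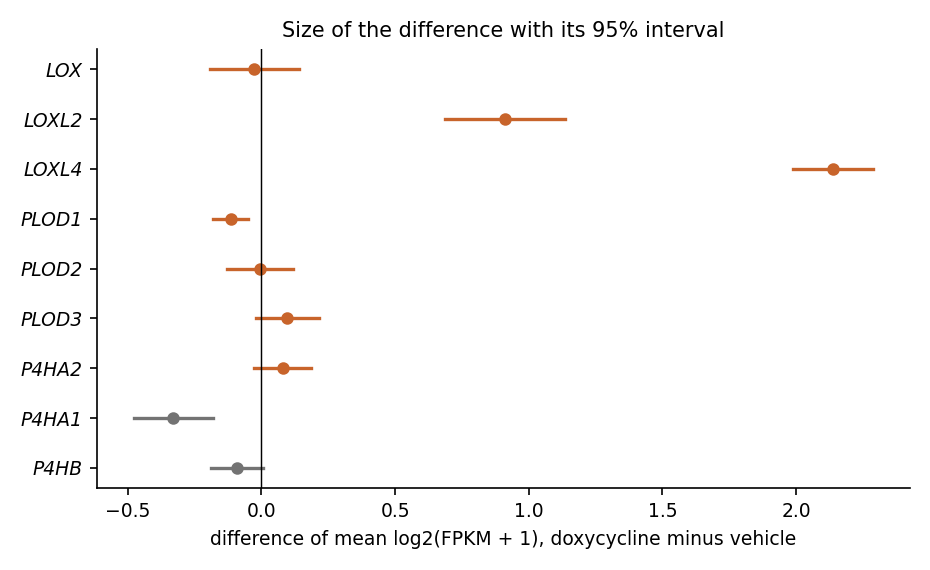
Difference of mean log2(FPKM + 1), doxycycline minus vehicle, with its 95% interval from limma, for the 7 enzymes (orange) and for P4HA1 and P4HB (grey). LOXL4 (2.14) and LOXL2 (0.91) stand apart from the other genes, whose differences lie between -0.33 and 0.10.

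The sequences just upstream of the transcription start are shown for LOXL4, the gene with the largest difference, and for LOX and PLOD2, whose levels overlapped between the groups. They are RefSeq promoters of GRCh38.p14, a different build from that of the table, matched by symbol. LOX, LOXL1, LOXL4, PLOD1, PLOD2, PLOD3 and P4HA2 had an entry, as did P4HA1, and the LOXL2 promoter was not analysed here. Stretches that GENCODE 29 annotates as exon were left out. Capitals mark the letters ACGTG, the core of the hypoxia response element, and GGGCGG, the core of the GC box, each searched on both strands.
LOXL4 (chr10:98268251-98268444, minus strand): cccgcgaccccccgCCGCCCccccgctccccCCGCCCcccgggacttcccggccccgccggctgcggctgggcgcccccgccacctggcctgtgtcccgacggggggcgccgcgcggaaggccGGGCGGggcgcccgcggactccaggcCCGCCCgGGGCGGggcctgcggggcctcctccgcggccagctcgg
LOX (chr5:122078361-122078509, minus strand): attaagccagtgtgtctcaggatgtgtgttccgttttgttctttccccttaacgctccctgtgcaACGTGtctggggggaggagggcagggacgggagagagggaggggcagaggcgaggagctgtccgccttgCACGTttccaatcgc
PLOD2 (chr3:146161185-146161434, minus strand): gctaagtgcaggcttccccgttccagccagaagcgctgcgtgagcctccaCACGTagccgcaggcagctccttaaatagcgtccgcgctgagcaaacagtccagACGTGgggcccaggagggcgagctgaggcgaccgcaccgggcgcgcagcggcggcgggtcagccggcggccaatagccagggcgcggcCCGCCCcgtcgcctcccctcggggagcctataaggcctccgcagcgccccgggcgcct
In the 250 bases before the start, LOXL4 held 6 matches to GGGCGG and 0 to ACGTG. LOX held 1 and 4 and PLOD2 held 1 and 2 of these. PLOD1, which was slightly lower, held 4 matches to GGGCGG and PLOD3, which did not pass, held 3, both with 0 to ACGTG. P4HA1, which fell, held 0 matches to GGGCGG and 1 to ACGTG, and LOXL1 and P4HA2 held 0 to either. A relation between these matches and the differences was not tested. Of 27305 promoters of the same length, 42.2% held GGGCGG and 18.6% held ACGTG. The nuclear receptor hexamer AGGTCA, held by 12.2% of them, was found in none of the windows searched, which do not include LOXL2. G and C made up 86.4% of the LOXL4 window, more than in 99.8% of all windows, against 55.2% for LOX and 72.4% for PLOD2. These matches describe letters only, and nothing about binding was measured.

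The genes whose profiles over the 6 libraries were closest to LOXL4, by Euclidean distance of log2(FPKM + 1) relative to the vehicle mean, were ANGPTL1 (distance 0.178), ISM1 (0.308), TNS4 (0.478), CXCL8 (0.571) and CD3D (0.573). ANGPTL1, a secreted angiopoietin-like protein, had 2.32 ± 0.159 FPKM with vehicle and 13.4 ± 0.412 FPKM with doxycycline. For PLOD1, the gene with the largest decrease among the enzymes, the closest were INO80D (0.0219), NOL4L (0.0259), FAM120A (0.0266), SCFD1 (0.0301) and IRF2BP2 (0.0305), each with a difference between -0.11 and -0.13.

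The other genes of the pathway were read from 8 lists. Over all genes tested the median difference was 0.01 and 28.8% were called, and the counts below stand beside these values. Among 9 tested enzymes of collagen hydroxylation, glycosylation and crosslinking outside the members, 3 rose and 1, P4HA1, fell (median -0.03). TGM2, a transglutaminase that forms bonds between glutamine and lysine, rose from 11.9 ± 0.304 to 20.2 ± 1.45 FPKM (limma adjusted p = 3.31e-04). CRTAP, the partner of prolyl 3-hydroxylase, rose from 30.0 ± 0.160 to 37.1 ± 0.473 FPKM (limma adjusted p = 5.03e-04). COLGALT2, which adds galactose to hydroxylysine, was at 11.2 ± 0.238 and 12.9 ± 0.730 FPKM, and its call (limma adjusted p = 0.0376) was lost in 8 of 15 alternatives, among them each left-out library, over a range of 0.0334 to 0.102.

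Of 15 tested collagen chaperones and export factors, 7 fell, 1 rose and 7 did not pass, with a median difference of -0.21. SERPINH1 (HSP47), the collagen-specific chaperone, was at 10.2, 11.0 and 10.4 FPKM with vehicle and at 7.54, 8.25 and 7.97 FPKM with doxycycline (difference -0.37, SE 0.05, limma adjusted p = 3.17e-03). KDELR2, the receptor that returns such chaperones to the endoplasmic reticulum, fell from 63.8 ± 0.889 to 49.97 ± 1.05 FPKM, and FKBP7, a prolyl isomerase of the endoplasmic reticulum, from 3.32 ± 0.157 to 2.24 ± 0.302 FPKM. The member that rose was SPARC, a secreted collagen-binding protein, with 15.0 ± 0.217 FPKM with vehicle and 28.0 ± 0.698 FPKM with doxycycline (limma adjusted p = 2.48e-05).

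The substrates were few. Of 41 collagen chains 8 were in the table and 5 were tested, of which 3 rose and 1 fell (median 0.30). The chains of the main fibrillar collagens, COL1A1, COL1A2 and COL3A1, were not analysed here. COL9A2, a chain of the fibril-associated collagen IX, had 7.03 ± 0.367 FPKM with vehicle and 15.4 ± 0.808 FPKM with doxycycline (ratio 2.19, limma adjusted p = 8.15e-05), and COL9A3, another chain of the same collagen, rose from 34.2 ± 0.489 to 42.4 ± 2.66 FPKM. COL18A1, a basement membrane collagen, rose from 14.8 ± 0.190 to 23.2 ± 0.0937 FPKM (limma adjusted p = 5.25e-05). COL27A1, a fibrillar collagen, fell from 11.6 ± 0.584 to 8.62 ± 0.254 FPKM. Of 6 tested partners from the elastic fibre and the matrix, 2 rose and 3 fell (median -0.02). EMILIN1, an elastic fibre glycoprotein, fell from 45.7 ± 0.823 to 28.8 ± 1.01 FPKM, and THBS1, thrombospondin, rose from 3.88 ± 0.173 to 5.23 ± 0.120 FPKM. FBLN1 (fibulin) was at 26.6 ± 0.891 and 23.6 ± 0.378 FPKM and LTBP3 at 4.08 ± 0.0842 and 4.92 ± 0.152 FPKM. The FBLN1 call was lost without vehicle replicate 3 or doxycycline replicate 1 or 2 (limma adjusted p = 0.0531, 0.0535 and 0.0584; range over the alternatives 0.0152 to 0.0584), and that of LTBP3 with the replicate block (0.0509; range 8.96e-03 to 0.0509). Without vehicle replicate 3 or without doxycycline replicate 2, 3 genes of this list were called in place of 5.

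Proteases that mature procollagen and lysyl oxidases included one of the larger differences. All 5 tested were called, 3 higher and 2 lower (median 0.23). FURIN, a proprotein convertase, rose from 12.4, 13.4 and 13.05 FPKM with vehicle to 36.7, 37.8 and 37.4 FPKM with doxycycline (ratio 2.88, limma adjusted p = 1.09e-05). BMP1, the protease that removes the LOX propeptide and the C-propeptide of procollagen, was at 1.54 ± 0.0725 and 1.98 ± 0.209 FPKM (limma adjusted p = 0.0470), and it is named after its values were seen. Its call was lost in 6 of 14 alternatives, with the replicate block and without each library but doxycycline replicate 1, over a range of 0.0370 to 0.122. ADAMTS2, which removes the N-propeptide of procollagen, fell from 17.8 ± 0.334 to 13.9 ± 0.552 FPKM, and the convertase PCSK5 from 4.63 ± 0.312 to 2.68 ± 0.110 FPKM. The related PCSK6 was at 5.37 ± 0.555 and 7.12 ± 0.868 FPKM, a call (limma adjusted p = 0.0472) lost in 8 of 15 alternatives, among them without each library but doxycycline replicate 3, over a range of 0.0368 to 0.117. Without vehicle replicate 1, 2 or 3 or doxycycline replicate 2, 3 proteases were called.

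Genes of the cofactors were mixed. Of 12 tested genes of copper supply, 2 rose and 2 fell (median -0.05). SLC31A1, the main copper importer, fell from 23.8 ± 0.889 to 19.9 ± 0.650 FPKM (limma adjusted p = 7.12e-03), and this was the call of the list that held in every alternative. ATP7A, the pump that loads copper onto secreted enzymes such as LOX, was at 1.77 ± 0.0376 and 2.04 ± 0.141 FPKM (limma adjusted p = 0.123), and it is named after its values were seen. ATP7B (4.44 ± 0.844 and 2.72 ± 0.475 FPKM), SLC31A2 (1.74 ± 0.0729 and 2.08 ± 0.0686 FPKM) and COMMD1 (4.90 ± 0.670 and 6.38 ± 0.336 FPKM) lost their calls in 5 of 14, 8 of 14 and 6 of 15 alternatives, with limma adjusted p of 8.19e-03 to 0.111, 0.0252 to 0.121 and 0.0242 to 0.117. SLC31A2 lost it without any 1 of the 6 libraries, ATP7B without each of them but vehicle replicate 3, and COMMD1 without each but vehicle replicate 1. Without vehicle replicate 2 or without doxycycline replicate 1, 2 or 3 only 1 gene of copper supply was called, and without vehicle replicate 1 or 3 there were 2.

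PLOD and P4HA enzymes belong to the iron and 2-oxoglutarate dioxygenases. Of 35 other tested genes of that superfamily 5 rose and 5 fell, 28.6% in all and near the share of all genes (median 0.00). TET1, which oxidises methylated cytosine, fell from 3.54 ± 0.0640 to 1.17 ± 0.139 FPKM (limma adjusted p = 1.09e-04). ASPH, an aspartyl hydroxylase, rose from 28.1 ± 0.614 to 38.1 ± 0.679 FPKM (limma adjusted p = 2.44e-04). EGLN3, a prolyl hydroxylase of hypoxia-inducible factors, was at 1.24 ± 0.147 and 0.784 ± 0.0791 FPKM, a call lost in 4 of 14 alternatives (limma adjusted p 0.0130 to 0.0648), and the demethylase ALKBH3 was at 4.19 ± 0.599 and 5.58 ± 0.467 FPKM, a call lost in 7 of 14 (0.0214 to 0.125). EGLN3 lost it without vehicle replicate 2 or 3 or doxycycline replicate 3, and ALKBH3 without each library but vehicle replicate 1. The mean of EGLN3 reached the minimum of 1 FPKM through the vehicle libraries only. Its p-values are therefore a description and not a test. Without vehicle replicate 2 or 3 the list had 5 calls, and without vehicle replicate 1 or doxycycline replicate 2 it had 6.

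Of 18 tested regulators of matrix enzymes in hypoxia and TGF-beta signalling, 5 rose and 2 fell (median 0.11). SKIL, a repressor of SMAD proteins, had 5.18, 3.08 and 5.64 FPKM with vehicle and 10.4, 10.9 and 10.4 FPKM with doxycycline (limma adjusted p = 7.22e-03). SMAD7, the inhibitory SMAD, rose from 5.23 ± 0.187 to 10.4 ± 0.820 FPKM (limma adjusted p = 2.84e-04), and CTGF, a matricellular protein, from 41.1 ± 1.88 to 55.8 ± 2.09 FPKM. CITED2, which competes with hypoxia-inducible factors for a coactivator, fell from 13.5 ± 0.379 to 10.3 ± 0.900 FPKM. HIF1A was at 23.1, 23.4 and 36.5 FPKM with vehicle and 32.9, 32.8 and 49.0 FPKM with doxycycline. Replicate 3 stood above the others in both groups, and the groups overlapped (limma adjusted p = 0.193, without the replicate block). Within each replicate number the doxycycline value was the higher, and whether the numbers pair the samples is not known. HIF1A is named after its values were seen.

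**Figure D4:**
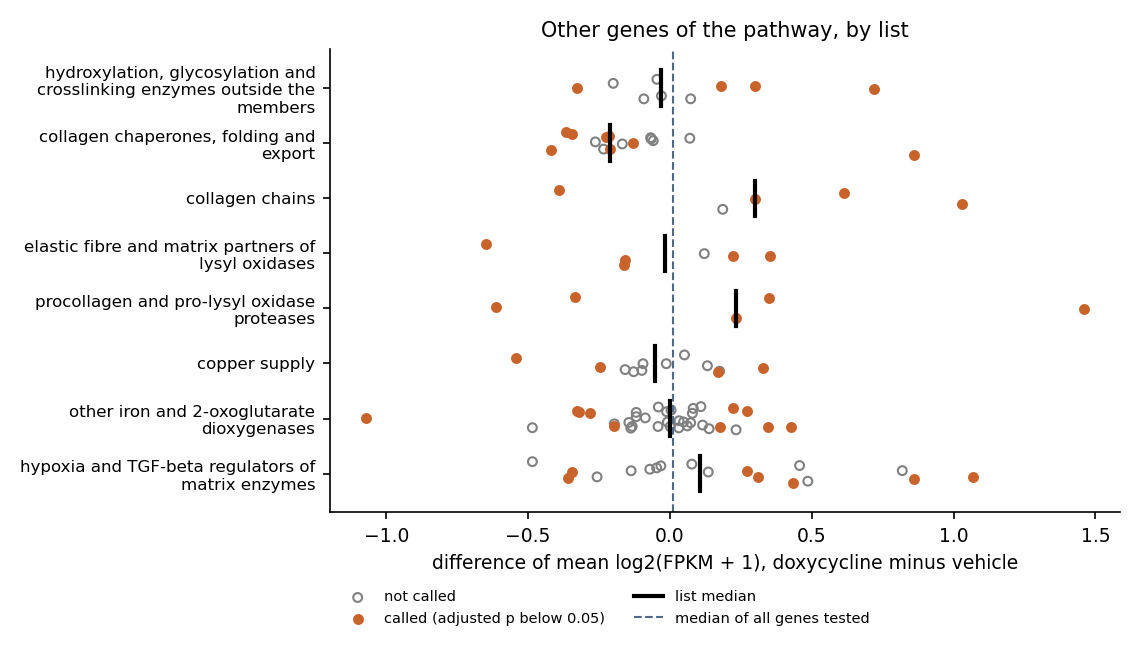
Difference of mean log2(FPKM + 1), doxycycline minus vehicle, for each tested gene of the 8 lists (points, spread vertically only for legibility), with called genes filled, the median of each list as a black bar and the median of all genes tested (0.01) as a dashed line. Most points of the collagen chaperones lie to the left of 0, of which 7 were called, and FURIN (1.46) and TET1 (-1.07) are the points farthest to the right and left.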

How the data were processed

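The deposited values are FPKM, 1 column per library, computed by the authors from polyadenylated RNA in strand-specific libraries. Per the submitters' processing notes, FastQC, cutadapt, HISAT2 and StringTie were used with GRCh37. Versions, options and annotation release are not given in the sources used here. All 11461 entries are protein-coding, and the larger group mean is at least 0.500 FPKM throughout. For 5 symbols with several entries (10 in all) the entry with the highest mean was kept. Genes with a mean of at least 1 FPKM (10469) were fitted on the log2(FPKM + 1) scale in limma 3.58.1 (R 4.3.3) with group as the only term and a variance trend, two-sided, with Benjamini-Hochberg adjustment over all of them. Called means an adjusted p below 0.05. Folds are ratios of mean FPKM. The procedure was tested on simulated data with independent normal noise. Far fewer genes changed there than were called here, so error rates in these data were not measured.

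The members and lists were chosen with earlier results of these data known. Named are all members, up to 4 called genes of each list with the largest absolute difference, LOXL3, P4HA1, P4HA3, P4HB, NR1I3, and the 5 genes closest to the members with the largest increase and decrease. Other genes are said to be named after their values were seen, except marker genes and genes overlapping a member. The copper-binding codons were found by translating GENCODE 29 transcripts and searching for the histidine-rich pattern. For each gene, the RefSeq promoter with the most upstream start was used.

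Alternatives were pseudocounts of 0.1 and 0.5, no filter, a minimum mean of 5 FPKM, median-ratio scaling, quantile normalization, no trend, a block for the replicate number, robust moderation, and leaving out each library. Figures used python 3.11.15, numpy 2.4.6, pandas 2.3.3 and matplotlib 3.10.9.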

Additional observations from a re-analysis of the deposited data

How the results depend on the processing

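LOXL4 and LOXL2 were higher and called in each alternative that tested them (15 and 14), with differences of 2.08 to 2.46 and 0.84 to 1.47, the largest at a pseudocount of 0.1. Both were selected on these same values, so these repeated calls are a description and not a test. LOX, PLOD2, PLOD3 and P4HA2 were not called in any. Of the 32 called genes named from the lists, 23 were called in every alternative that tested them, 9 were not, and no direction changed. The number of members called was 2 or 3. Called genes of copper supply numbered 4, but 2 with a minimum mean of 5 FPKM or quantile normalization and 1 to 2 with a library left out. For the proteases the number was 5, but 3 with a minimum mean of 5 FPKM or the replicate block, and 3 to 4 with a library left out. For the elastic fibre and matrix partners it was 5, but 3 with that minimum or the block, and 3 to 4 with a library left out. For the other dioxygenases it was 10, but 6 with the block and 5 to 7 with a library left out. The higher minimum tests fewer genes and a left-out library leaves fewer samples; for quantile normalization and the block the cause was not tested.

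Over the genes tested, the deviations of same-numbered libraries correlated at 0.0150, -0.0321 and 0.0917. Low correlations over all genes cannot decide whether the numbers pair the samples, since single genes may still follow the number. With the replicate block 2343 genes were called in place of 3012. Not every library correlated best with its own number. The depth is unknown, so no counting error is given, and levels near 1 FPKM are the least certain.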

Other observations

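Some genes of the lists lay under the minimum mean of 1 FPKM and were tested only in the alternative without a filter. MEP1A, a metalloprotease that cleaves procollagen, was at 0.597, 0.666 and 0.704 FPKM with vehicle and at 0.102, 0.0555 and 0.0474 FPKM with doxycycline. COL7A1, the collagen of anchoring fibrils, was at 0.595, 0.698 and 0.493 FPKM with vehicle and at 0.194, 0.184 and 0.169 FPKM with doxycycline. COL4A2, a chain of collagen IV, the substrate of LOXL2, was at 0.406, 0.492 and 0.672 FPKM with vehicle and at 0.770, 0.811 and 0.830 FPKM with doxycycline. In these 3 genes the groups did not overlap, which held for 47.1% of the genes tested with the filter. They were named after their values were seen. Without the filter, limma called MEP1A (adjusted p = 4.19e-04) and COL7A1 (adjusted p = 3.75e-03) lower, and COL4A2 did not pass (adjusted p = 0.0527). The larger group mean of every listed gene has a lower limit, given above with the processing. MEP1A and COL7A1 reached that limit with vehicle only. Being listed through the higher group favours a difference, so their p-values are a description and not a test.

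PDLIM4, a PDZ and LIM domain protein whose gene overlaps P4HA2 on the opposite strand over 15784 bases, was at 0.252 ± 0.120 FPKM with vehicle and 1.02 ± 0.0566 FPKM with doxycycline, and it was likewise tested only without the filter (limma adjusted p = 1.74e-03). PDLIM4 reached the lower limit of the listed genes with doxycycline only, so its p-value is also a description and not a test. SRFBP1, which overlaps LOX on the opposite strand, was at 5.08 ± 0.174 and 5.43 ± 0.203 FPKM (limma adjusted p = 0.259).

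A pair of regulators, named after their values were seen, differed widely between libraries of the same group, and neither passed (limma adjusted p = 0.214 for EPAS1 and 0.474 for TGFBR1). EPAS1, a hypoxia-inducible factor, was at 26.1, 11.8 and 28.3 FPKM with vehicle and at 21.7, 48.7 and 48.9 FPKM with doxycycline. TGFBR1, a TGF-beta receptor, was at 6.63, 7.05 and 3.18 FPKM with vehicle and at 2.33, 7.68 and 2.25 FPKM with doxycycline.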
